A study of Mus musculus with 31 samples.

Results

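Testes of Wv/Wv mouse fetuses were compared with wild-type testes at 16 dpc (days post coitum), taking every array whose label gave testis, that age and one of those genotypes. These were 6 of the 31 arrays of the series, 3 from wild-type and 3 from Wv/Wv testes, each carrying total RNA of a fetal testis sample on an Affymetrix 3′ expression array. Wv is a point mutation in Kit, the receptor for stem cell factor, that leaves a receptor of weak kinase activity; the mutation is in every cell of the animal, and the strain background is not given in the sources used here. Mutant testes at 14 dpc (2 arrays, beside 3 of wild type) and mutant ovaries at 16 dpc (3 beside 3 of wild type) served for comparison. The labels name the arrays biological replicates and do not say whether these were separate fetuses, pairs of gonads or pools. The spread of each gene was estimated within the 12 groups of all 31 arrays, not from these 6 arrays alone. The p-values therefore reflect how far the arrays of the series scatter within their groups, and some of that scatter may be technical. Signals are on the log2 scale, and a change is the Wv/Wv mean minus the wild-type mean with the standard error of a limma fit. Genes were called where the p from limma, adjusted by Benjamini-Hochberg over 18194 genes, was below 0.05.

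Kit signalling carries primordial germ cells through their migration and keeps them alive, and its ligand Kitl is made by the somatic cells around them. In the fetal testis, germ cells enclosed by Sertoli cells stop dividing, switch off their pluripotency genes and set up DNA methylation anew, helped by the PIWI-interacting RNA (piRNA) pathway, which silences transposons. In the ovary of the same age, germ cells are instead in meiotic prophase. In RNA of a whole gonad, fewer cells of a type and less RNA per cell cannot be told apart.

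Wild-type array 1 stood apart from the other arrays. The SD of its log2 values over all probe sets was 1.77, against 2.35 and 2.38 on wild-type arrays 2 and 3, and 2.16, 2.36 and 2.37 on Wv/Wv arrays 1, 2 and 3. Array 1 of each genotype was among 10 of the 31 arrays with an SD below 2.2, called narrow-spread here. A further sign of RNA or labelling quality moved with them for Gapdh but not throughout for Actb. The Gapdh probe set at the 3′ end minus that at the 5′ end read 1.12, 2.04 and 1.95 on the wild-type arrays and 0.51, 2.01 and 1.98 on the Wv/Wv arrays. The same measure for Actb was lower on Wv/Wv array 1 than on Wv/Wv arrays 2 and 3. On wild-type array 1 the Actb value was not lowered and lay above those of wild-type arrays 2 and 3. The part of these signs in the results was not tested. With genes ranked by the mean of wild-type arrays 2 and 3, wild-type array 1 minus that mean had a median of −1.60 over the brightest 4549 genes and 0.59 over as many of the dimmest. It was the lowest of the 6 arrays for 52.6% of genes, and with it in the comparison the median change of all genes was 0.12, against −0.01 without it. The labelled sex was borne out on all 6 arrays: Eif2s3y, a Y-linked translation factor gene, read 6.74 to 10.31 in these testes and 3.52 to 4.20 in ovaries of this age, and Xist, the RNA that coats an inactive X chromosome, read 5.19 to 8.04 against 11.72 to 12.82. Wild-type array 1 had the lowest Eif2s3y and the highest Xist of the 6. Foxl2, a transcription factor of ovarian somatic cells, read 6.53 to 6.99 in the testes and 9.62 to 10.39 in ovaries, while Cyp17a1, a steroidogenic enzyme of fetal Leydig cells, read 12.72 to 14.04 against 5.85 to 6.99.

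The largest falls in the mutant testis were of germ cell transcripts, and no gene was called higher. In all 88 genes were called lower (0.484% of those tested) and 0 higher (0%). Without wild-type array 1 the counts were 104 lower (0.572%) and 0 higher (0%), and 78 genes were called in both. With the narrow-spread class as a further term and without that array they were 180 lower and 1 higher, including 86 of the 88. At an unadjusted p below 0.05, limma gave 480 genes lower and 838 higher with all arrays, and 65 higher without wild-type array 1. The changes of the 88 genes ran from −6.53 to −0.95 with a median of −2.20, and 49 of them lay below −2. The 10 genes lost without wild-type array 1 were Dppa3, Tex11, Cyct, Nlrp4c, Slc4a5, Ceacam10, Cd2, Rbks, Muc3 and 1700019A02Rik.

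**Figure D1:**
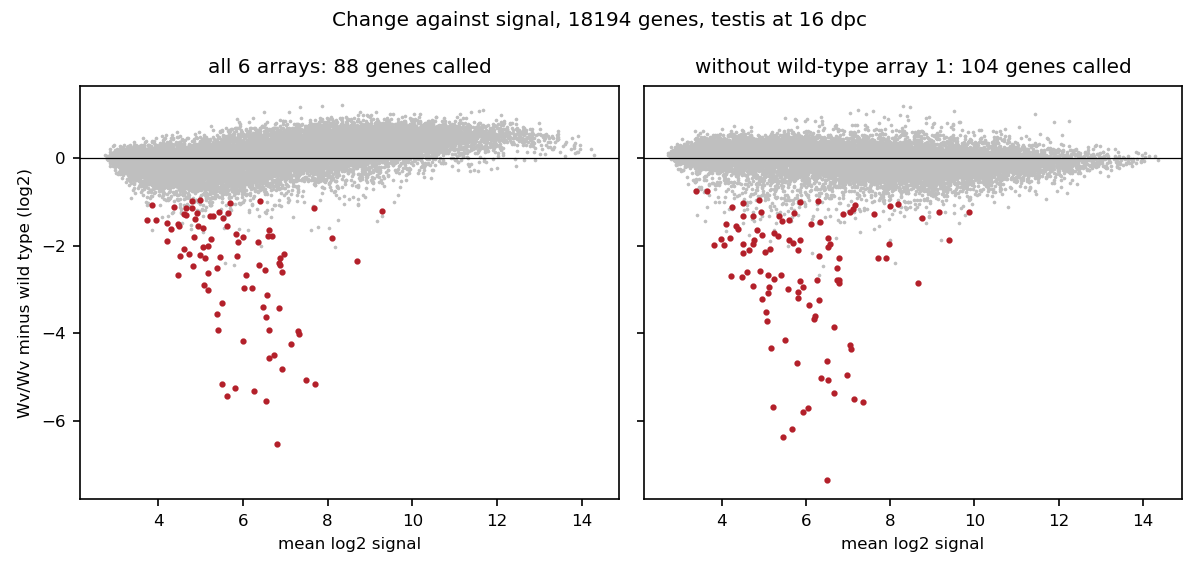
Change (Wv/Wv minus wild type, log2) of each of 18194 genes in testis at 16 dpc against its mean log2 signal, with all 6 arrays (left) and without wild-type array 1 (right); red points are called genes, 88 and 104. With all arrays the cloud of uncalled genes bends upward at high signal, and without wild-type array 1 it lies along 0, while the called genes lie below 0 in both panels.

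The germ cell genes with the largest falls separated the genotypes on every array. Mael, a piRNA pathway protein of germ cell granules, read 8.41, 11.60 and 10.22 on wild-type arrays 1, 2 and 3 and 3.58, 3.86 and 3.21 on Wv/Wv arrays 1, 2 and 3. All 3 mutant arrays lay under 5.705, the 40th percentile of all signals, which is taken here as the limit under which a level is not measured. A log2 change against such arrays does not measure the size of a fall, so a lower bound is given too, with the mutant arrays set at that limit. For Mael the change was −6.53 ± 0.47 (adjusted p = 1.2e-08), a fall of at least 20.7-fold, and without wild-type array 1 it was −7.36, at least 37-fold.

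Dazl, the RNA-binding protein that makes germ cells competent for sexual differentiation, read 8.99, 10.15 and 8.80 in wild type and 3.72, 3.92 and 3.69 in Wv/Wv. The change was −5.54 ± 0.60 (adjusted p = 4.03e-06), at least 12.2-fold, and a second Dazl probe set fell by 4.20. Ddx4, the germ cell RNA helicase known as mouse vasa homologue, read 8.20, 10.40 and 9.35 in wild type and 3.35, 5.17 and 5.02 in the mutant, a change of −4.81 ± 0.70 (adjusted p = 0.000272). For Mael and Ddx4 the order among the wild-type arrays was array 2 above 3 above 1, and for Dazl it was array 2 above 1 above 3. Array 2 was the highest wild-type array for 85 of the 88 genes and the lowest was array 1 for 54 and array 3 for 34. Array 2 exceeded array 3 for 88 of 88, by a median of 1.12, whereas over all genes array 2 exceeded array 3 for 63.2%, by a median of 0.06. The wild-type testes thus differed among themselves in the called genes as a group, and the cause was not tested.

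Of 20 measured genes of the germ cell list, 15 were called lower and 0 higher, with a median change of −2.40. Without wild-type array 1, 14 were called, with a median of −2.78. The lists were chosen with earlier results of these data known, and some share genes, so their counts are not independent support. Stk31, a tudor-domain protein of germ cells, changed by −5.44 ± 0.54, and its second probe set fell by 5.15. Slc25a31, the germ line ADP/ATP carrier of mitochondria, changed by −5.32 ± 0.49. Rpl39l, a germ line paralogue of a ribosomal protein, changed by −5.07 ± 0.44, at least 20-fold. Its ubiquitous counterpart Rpl39 was not called, with 5.82, 6.05 and 6.02 in wild type and 6.52, 6.01 and 6.05 in Wv/Wv. These readings lie near the limit, so the lack of a call says little about Rpl39. The other called members were Tdrd9, Tktl1, Gpat2, Tex101, Dnd1, Rnf17, Taf7l, Tex11, Tdrd5, Ddx4 and Dazl beside Mael. Tdrd1, Tdrd7, Tdrd12, Magea5 and Tex13b were not called; Tdrd1 read under the limit on all 6 arrays.

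**Figure D2:**
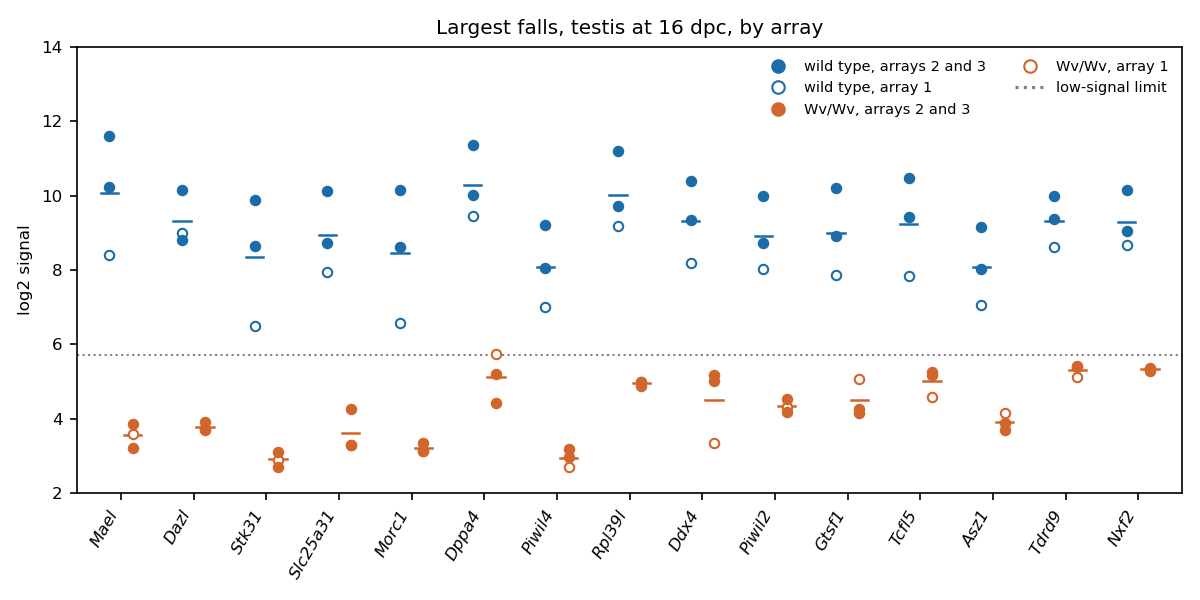
Log2 signal of the 15 called genes with the largest falls, by array, in wild-type (blue) and Wv/Wv (orange) testes at 16 dpc; short lines are group means, open circles array 1 of each genotype, and the dotted line the limit of 5.705. Only called genes without overlap of the genotypes were eligible. All Wv/Wv arrays lie under the limit but 1 of the 3 for Dppa4, at 5.74.

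Genes of the fetal male germ cell and its piRNA pathway were lower as well. Of 17 measured, 9 were called lower, with a median of −2.34, and 11 without wild-type array 1, with a median of −2.86; the additional genes were Ddx25 and Tdrkh. Piwil4, the nuclear PIWI protein that directs DNA methylation to transposons, read 7.00, 9.22 and 8.05 in wild type and 2.69, 3.18 and 2.97 in Wv/Wv, a change of −5.15 ± 0.37 (adjusted p = 1.2e-08). The second probe set of Piwil4 was also called lower but changed by only −0.99, so the size rests on the probe set. Piwil2, the cytoplasmic PIWI partner that amplifies piRNAs, changed by −4.57 ± 0.40. Gtsf1, a small zinc finger protein that works with PIWI proteins, changed by −4.50 ± 0.45.

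Morc1, a nuclear protein needed for transposon silencing in male germ cells, read 6.57, 10.15 and 8.62 in wild type and 3.12, 3.35 and 3.14 in Wv/Wv, a change of −5.24 ± 0.61. Asz1 and Mov10l1, a granule protein and an RNA helicase of piRNA production, changed by −4.18 ± 0.40 and −3.39 ± 0.27. Tex19.1 and Tex15, both needed for transposon control in the germ line, changed by −3.93 ± 0.54 and −2.34 ± 0.49; Tex15 stayed above the limit in the mutant, at 7.06, 7.79 and 7.73. Piwil1, the PIWI protein of adult spermatocytes, was not called (−0.81).

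Dnmt3l, the catalytically inactive partner that stimulates de novo DNA methyltransferases, was the 1 gene called among 22 DNA methylation and chromatin genes, whose median change was 0.25, and it was the 1 called without wild-type array 1, where the median was −0.21. It read 7.05, 8.36 and 7.10 in wild type and 4.64, 4.49 and 4.48 in Wv/Wv, a change of −2.97 ± 0.25 (adjusted p = 1.28e-07), at least 3.48-fold. Dnmt3a, the methyltransferase it assists, changed by 0.33 and was not called, nor were Dnmt1 (0.34), Dnmt3b (0.04) and Uhrf1 (0.53). Without wild-type array 1 these 4 changes were −0.05, −0.22, −0.33 and −0.10.

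Of the pluripotency and primordial germ cell genes a smaller part was called. Of 25 measured, 7 were called lower, with a median change of −0.71, and 6 without wild-type array 1, with a median of −0.37. Pou5f1, the pluripotency factor OCT4, read 6.94, 8.74 and 7.45 in wild type and 4.60, 4.92 and 4.71 in Wv/Wv, a change of −2.97 ± 0.51 (adjusted p = 0.00264). Dppa4, a chromatin protein of pluripotent cells, had the largest fall of the list, with 9.45, 11.37 and 10.03 in wild type and 5.74, 5.21 and 4.43 in the mutant (−5.16 ± 0.52). Sall4, a zinc finger factor of germ cells, and Lin28a, an inhibitor of let-7 maturation, changed by −3.12 ± 0.66 and −2.62 ± 0.55; their second probe sets, at −1.10 and −0.67, were not called. Zfp42, Trap1a and Dppa3 were called as well.

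Other core members of the list were near or under the limit already in wild type at this age. Nanog read 3.92, 4.28 and 3.99 in wild type and 3.83, 3.87 and 3.81 in the mutant. Sox2 read 3.08, 4.55 and 3.82 against 2.98, 2.95 and 2.77, and Prdm14 3.62, 3.31 and 3.30 against 3.22, 3.17 and 3.08. None of these was called, and with both groups under the limit no fold is given. Dppa5a, an RNA-binding protein of pluripotent cells, read 6.53, 8.51 and 7.27 in wild type and 4.93, 5.98 and 5.38 in Wv/Wv without overlap, yet its change of −2.01 ± 0.65 did not pass (adjusted p = 0.452).

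Nodal signalling, a pathway of early male germ cells, showed no called gene among 12 (median 0.10), and 0 of them had an unadjusted p below 0.05 in limma. With 0.484% of all genes called lower, the lack of a call among 12 says little. Nodal itself read 6.21, 5.62 and 5.37 in wild type and 6.06, 5.55 and 5.41 in Wv/Wv, and its co-receptor Tdgf1 (Cripto) was under the limit on all 6 arrays. Lefty1, a Nodal inhibitor, was high on wild-type array 1 alone, with 7.53, 6.00 and 5.70 against 6.30, 5.86 and 5.79 in the mutant. Lefty2 was not called either (0.67 with all arrays). Without wild-type array 1 this list again had 0 calls, and its median was 0.07.

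Meiosis genes split. Of 26 measured, 7 were called lower, with a median of −0.53 over the list (−0.58 without wild-type array 1), and the called ones were structural genes of the synaptonemal complex and chromosome axis. Sycp3, an axis protein, read 5.31, 7.70 and 6.60 in wild type and 4.06, 3.45 and 3.43 in Wv/Wv, a change of −2.89 ± 0.46 (adjusted p = 0.000973). Tex12 and Syce1, central element proteins, changed by −3.56 ± 0.34 and −1.85 ± 0.34. The cohesin subunit Stag3 changed by −2.39 ± 0.43, and the axis genes Sycp2 and Hormad1 and the transverse filament gene Sycp1 were also called. Stra8, the retinoic acid target that opens the meiotic programme, was not called, at 6.73, 6.29 and 5.41 in wild type and 5.69, 5.36 and 5.17 in Wv/Wv, and Spo11, Dmc1, Meioc and Rec8 were not called.

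Among 18 oocyte genes 1 was called, Sohlh1, a helix-loop-helix factor also used by spermatogonia, which read 6.78, 7.61 and 6.37 in wild type and 4.78, 5.29 and 5.26 in the mutant (−1.81 ± 0.26). The oocyte list had a median of −0.21, and without wild-type array 1 it had 1 call and a median of −0.02. Of 13 measured genes of the Rhox cluster and other X-linked germ line genes, 5 were called lower: Nxf2, Tktl1, Mageb16, Taf7l and Tex11. Without wild-type array 1 these were 4, Tex11 being lost, and the median went from −0.91 to −1.16. Nxf2, a germ line paralogue of the mRNA export factor, read 8.67, 10.15 and 9.05 in wild type and 5.34, 5.29 and 5.36 in Wv/Wv (−3.96 ± 0.32), at least 12-fold. The homeobox genes Rhox6 and Rhox9 were not called, with changes of −0.40 and −0.30.

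By position, 10 of the 88 genes lay on the X chromosome (11.4%), which held 617 of the 18194 genes tested (3.39%). Beside the 5 just named these were Trap1a, Map7d2, Gm364, Pnma5 and 8030474K03Rik. No test of this share was made, and paralogues of these families can share probes.

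On no list were 47 of the 88 genes. Tcfl5, a helix-loop-helix factor of spermatogenesis, changed by −4.25 ± 0.52, and Tex14, the protein of germ cell intercellular bridges, by −3.42 ± 0.37. Uchl1, a ubiquitin hydrolase of spermatogonia and neurons, changed by −2.59 ± 0.37, with mutant arrays at 5.83, 5.63 and 5.43. Brdt, a bromodomain protein of meiotic and later germ cells, changed by −1.92 ± 0.30, although its other probe sets ranged from −2.40 to 0.29. Ldhc, the lactate dehydrogenase of sperm, changed by −1.40 ± 0.25 and its second probe set by −2.53. Rrad, a small GTPase of the Ras family, read 6.86, 8.23 and 7.16 in wild type and 4.42, 4.77 and 5.06 in Wv/Wv (−2.66 ± 0.30).

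Low signals limit how much of this can be sized. All 3 Wv/Wv arrays read under 5.705 for 73 of the 88 genes, and for 8 genes all 6 arrays did. In 38 genes the 3 mutant arrays lay under the limit and the 3 wild-type arrays over it. In 19 genes further probe sets existed, 27 in all, of which 8 were called lower and 0 higher. Leaving out wild-type array 2, the array with the highest signals for most called genes, reduced the calls to 51, and leaving out wild-type array 3 raised them to 146 lower and 15 higher. With only the 6 arrays in the fit, limma called 1 gene, Dazl (adjusted p = 0.0442). There 88 of the 88 had an unadjusted p below 0.05, but they were chosen on these same arrays, so this is no independent support. Counted without a model, 516 genes (2.84%) were lower and 733 (4.03%) higher in Wv/Wv with no overlap of the arrays, and 87 of the 88 called genes did not overlap, the exception being Slc4a5.

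The promoters of the called genes were set side by side to show what sequence they share. Germ line genes that are kept silent in other cells often carry the E-box CACGTG, bound by MAX and MGA, and the motif TCCCGC, bound by E2F6, and both were searched on both strands, CACGTG being its own reverse complement. In the 250 bases before the start, the E-box stood in 25 of 84 promoters of called genes (29.8%) and in 1978 of all 32851 promoters in the RefSeq table (6.02%). TCCCGC stood in 17 (20.2%) against 16.9% of all promoters, and both together in 6 (7.14%) against 1.45%. The median number of CpG dinucleotides was 10 against 6 over all promoters. Of the 88 genes, 71 were in the table, 12 of them with more than 1 promoter, and 21 had a promoter with the E-box. A match is a run of letters and not a site shown to be bound.

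Of genes with large falls, some called at 16 and not at 14 dpc, 5 promoters are printed, 5′ to 3′ on the gene's strand and ending at the base before the start, from RefSeq on GRCm38.p6; capitals mark the motifs. Mael (chr1:166238745-166238994, minus strand) holds both motifs, Tdrd9 (chr12:111971309-111971558, plus strand) 2 E-boxes, Nxf2 (chrX:134964755-134965004, minus strand, 1 of 2 promoters, the other with no E-box and 1 TCCCGC) 5 within the last 80 bases, Dnmt3l (chr10:78049592-78049841, plus strand, 1 of 3 promoters) 1, and Dazl (chr17:50293621-50293870, minus strand) neither motif but 20 CpG.
Mael: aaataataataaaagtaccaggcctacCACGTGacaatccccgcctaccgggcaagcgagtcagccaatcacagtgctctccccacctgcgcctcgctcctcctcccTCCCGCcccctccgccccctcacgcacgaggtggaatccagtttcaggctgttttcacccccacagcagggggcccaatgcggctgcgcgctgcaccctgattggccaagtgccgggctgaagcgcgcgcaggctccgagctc
Tdrd9: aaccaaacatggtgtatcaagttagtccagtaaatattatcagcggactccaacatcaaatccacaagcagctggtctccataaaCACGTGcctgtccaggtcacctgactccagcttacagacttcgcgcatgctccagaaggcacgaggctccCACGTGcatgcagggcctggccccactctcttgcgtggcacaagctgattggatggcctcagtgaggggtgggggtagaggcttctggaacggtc
Nxf2: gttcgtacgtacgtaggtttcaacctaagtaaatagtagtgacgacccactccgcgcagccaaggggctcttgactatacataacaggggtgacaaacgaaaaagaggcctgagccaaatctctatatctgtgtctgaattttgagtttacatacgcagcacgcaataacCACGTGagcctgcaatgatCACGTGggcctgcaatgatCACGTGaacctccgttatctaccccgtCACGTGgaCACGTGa
Dnmt3l: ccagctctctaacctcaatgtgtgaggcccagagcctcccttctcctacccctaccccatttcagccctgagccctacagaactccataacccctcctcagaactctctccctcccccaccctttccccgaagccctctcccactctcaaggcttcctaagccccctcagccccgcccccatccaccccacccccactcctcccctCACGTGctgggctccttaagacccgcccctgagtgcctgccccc
Dazl: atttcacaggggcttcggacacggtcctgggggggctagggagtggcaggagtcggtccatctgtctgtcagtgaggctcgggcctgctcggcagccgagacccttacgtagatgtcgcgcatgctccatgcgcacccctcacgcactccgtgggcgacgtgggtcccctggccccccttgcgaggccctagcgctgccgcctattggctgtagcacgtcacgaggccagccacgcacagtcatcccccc
Nxf2 has the most E-boxes of the 5 sequences shown, and Dazl has neither motif in this window. The 2 promoters of Piwil4 in the table hold neither motif as well, nor do the other promoters of Dnmt3l. The 5 printed sequences were picked, so they do not show how often the called genes carry an E-box.

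The genes of other cell types were compared next, to see what moved beside the germ cell genes. Over 12 lists of other cell types with 193 measured genes, limma called 0. Over all genes it called 0.484% lower and 0% higher, so 0 calls in a short list say little. At an unadjusted p below 0.05 it gave 4 lower and 13 higher of the 193 with all arrays, and 1 lower and 4 higher without wild-type array 1. Over all 18194 genes it gave 480 lower and 838 higher with all arrays. The medians followed wild-type array 1: the 29 Sertoli genes had a median of 0.39, and 0.02 without it, and the 14 Leydig and steroidogenesis genes 0.63 and 0.04. The 21 housekeeping genes moved in the same way, from 0.47 to −0.07. With each array centred on housekeeping genes, the median of all genes shifted to −0.44, that of the Sertoli list to −0.17 and that of the Leydig list to 0.08, while the 88 called genes kept a negative change.

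The Sertoli genes Amh and Sox9 read highest on array 1 of each genotype. Amh, the hormone that removes the Müllerian ducts, read 9.81, 7.50 and 7.68 in wild type and 10.87, 7.64 and 7.84 in Wv/Wv, and Sox9, the testis-determining factor of Sertoli cells, 7.91, 7.20 and 7.49 against 9.09, 7.49 and 7.36. For both genes arrays 2 and 3 of the genotypes lay close together. Dhh, the hedgehog ligand of Sertoli cells, read 9.46, 10.19 and 10.02 in wild type and 9.72, 9.87 and 9.99 in Wv/Wv, so that array 1 was the lowest of each genotype. The median level of the list was 8.80, 8.87 and 9.15 on the wild-type arrays and 9.72, 8.93 and 9.22 on the Wv/Wv arrays. Neither these nor Gata4 (0.48 with all arrays) and Wt1 (0.67 with all arrays) were called. Without wild-type array 1 the Sertoli list again had 0 calls, and its median was 0.02.

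Leydig cell genes were high on all arrays and low on wild-type array 1. Star, which carries cholesterol into mitochondria, read 9.60, 11.33 and 11.14 in wild type and 11.39, 11.29 and 11.47 in Wv/Wv. Cyp11a1, the enzyme of the first step of steroid synthesis, read 11.19, 12.80 and 12.91 against 12.86, 12.95 and 13.00; without wild-type array 1 its change was 0.09. Insl3 was not analysed here. The smooth muscle gene Acta2 read 12.08, 13.26 and 13.35 against 13.30, 13.38 and 13.35, and its change was 0.45 with all arrays and 0.04 without wild-type array 1.

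**Figure D3:**
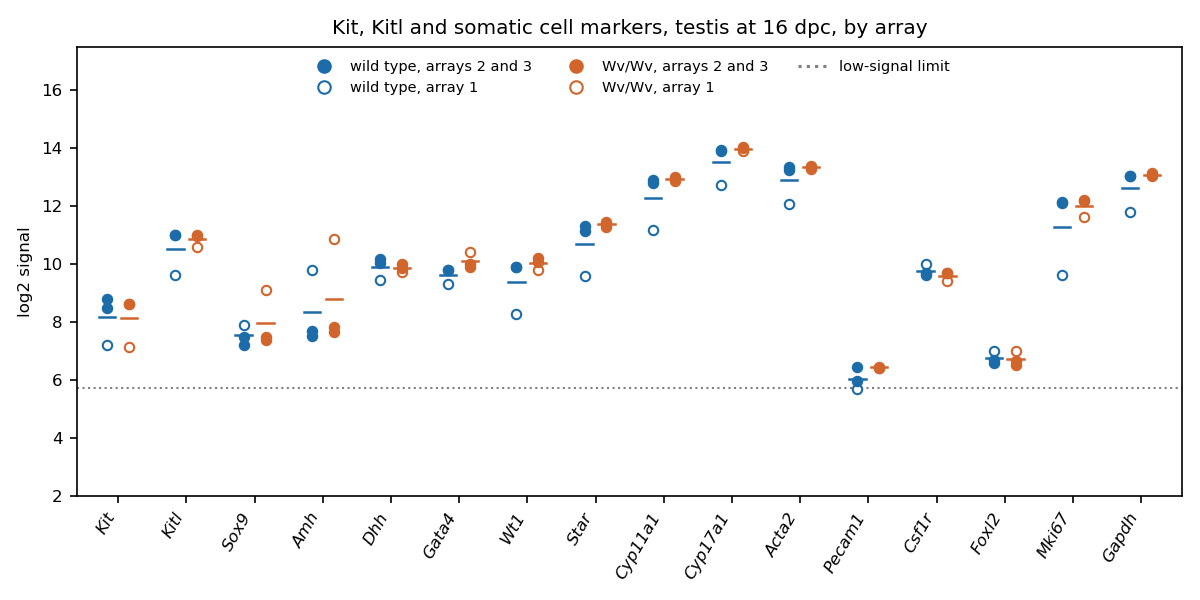
Log2 signal of Kit, its ligand Kitl and markers of somatic cells, proliferation (Mki67) and housekeeping (Gapdh), by array, in wild-type (blue) and Wv/Wv (orange) testes at 16 dpc; short lines are group means, open circles array 1 of each genotype, and the dotted line the limit of 5.705. Array 1 of wild type lies below arrays 2 and 3 for most of these genes, and none of the 16 genes was called.

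Genes of mast cells, melanocytes and red blood cells, which Kit mutations also affect, gave no call. With 0.484% of all genes called lower, this says little about these cells. On all 6 arrays 6 of the 16 mast cell and melanocyte genes and 2 of the 14 erythroid genes read under the limit. Of 16 mast cell and melanocyte genes 0 were called (median −0.14; 0.09 without wild-type array 1), and of 14 erythroid genes 0 (median −0.19 and −0.34); at an unadjusted p below 0.05 limma gave 2 and 0 of them lower. Cpa3, the mast cell carboxypeptidase, read 6.16, 6.23 and 4.87 in wild type and 4.55, 4.66 and 4.82 in Wv/Wv, so that wild-type array 3 lay with the mutant arrays on a low signal (−1.08 ± 0.48, adjusted p = 0.667). Klf1, the erythroid master factor, read 7.89, 7.13 and 6.44 against 6.75, 6.38 and 6.27, with an overlap. Csf1r of macrophages (−0.17) and Pecam1 of endothelium (0.40) were not called with all arrays. Without wild-type array 1 the macrophage and endothelium lists had 0 calls. Their medians moved from 0.11 to −0.02 and from 0.43 to 0.14. Markers of the mesonephros such as Pax8 (0.12) and of ovarian somatic cells such as Foxl2 (−0.02) were not called either.

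Kit itself was not called in the mutant testis. It read 7.21, 8.79 and 8.47 in wild type and 7.12, 8.62 and 8.63 in Wv/Wv, a change of −0.03 ± 0.54 (−0.50 without wild-type array 1), so array 1 was the low one in each genotype. Wv changes the sequence of the protein, so the level of the transcript does not check the genotype labels. Kitl, its ligand, read 9.61, 10.99 and 11.01 against 10.58, 10.98 and 11.02. Of 18 genes of Kit and its signalling limma called 0, and 0 had an unadjusted p below 0.05.

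Of 21 mitotic genes limma called 0, and 0 had an unadjusted p below 0.05; the median was 0.47 and, without wild-type array 1, −0.11. Mki67, a mark of cycling cells, read 9.61, 12.11 and 12.13 in wild type and 11.63, 12.19 and 12.21 in Wv/Wv. Cdkn1b, the cell cycle inhibitor p27, read 9.37, 8.25 and 8.49 against 10.20, 8.55 and 8.19, again with array 1 highest in each genotype. Of 16 genes of p53 targets and apoptosis limma called 0 (1 lower and 1 higher at an unadjusted p below 0.05), and the lowest change was that of Pmaip1, the proapoptotic protein NOXA, with 4.72, 6.00 and 4.83 in wild type and 4.03, 3.67 and 4.06 in Wv/Wv (−1.26 ± 0.34, adjusted p = 0.154, and 0.0694 without wild-type array 1).

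**Figure D4:**
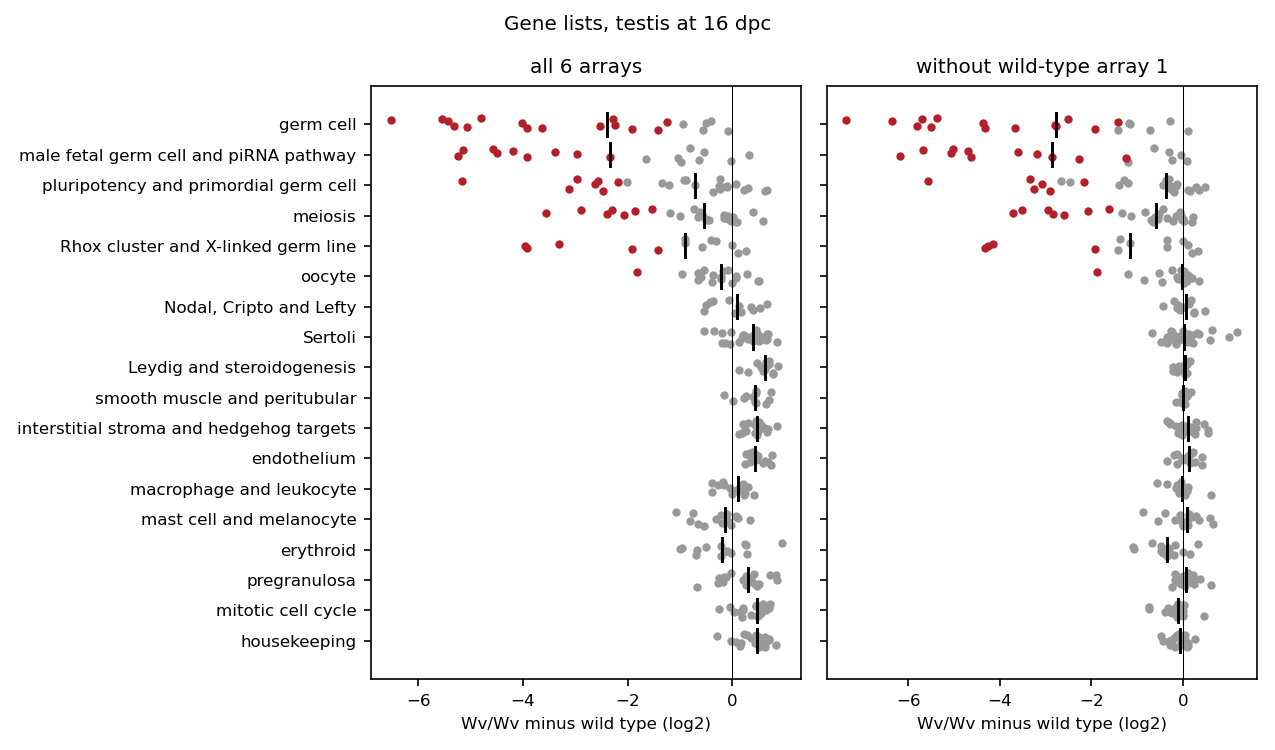
Change (Wv/Wv minus wild type, log2) of each measured gene of 18 lists in testis at 16 dpc, with all 6 arrays (left) and without wild-type array 1 (right); red points are called genes, grey points uncalled ones and black bars list medians. Called genes appear in the germ cell, piRNA, pluripotency, meiosis, X-linked and oocyte lists, and between the panels the median moves from 0.47 to −0.07 for housekeeping genes, from 0.39 to 0.02 for Sertoli genes and from −0.19 to −0.34 for erythroid genes.

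The genotype effect in the testis was then compared between 16 and 14 dpc, to ask which losses depended on age. At 14 dpc 108 of 18194 genes were lower and 0 higher. Of the 108, 40 were among the 88, that is 45.5% of the genes at 16 dpc and 37% of those at 14 dpc. Wv/Wv array 2 of 14 dpc was narrow-spread (SD 2.14), and no wild-type testis array of that age was. Array class and genotype are thus partly mixed in the effect at 14 dpc, as in the difference from it. The difference of the effects itself passed for 15 genes, 5 with a more negative effect at 16 dpc (0.0275%) and 10 with a less negative one (0.055%). With each array centred on housekeeping genes the split was 18 and 1. Without wild-type array 1 it passed for 25 genes, 14 more negative and 11 less negative, and 14 of the 15 were among them; Cpeb1 was lost (adjusted p = 0.08). The same count of 25 came without wild-type array 3, and with only the arrays compared in the fit 3 were called. Without Wv/Wv array 1 of 14 dpc it was 6 and without array 2 it was 8, fits in which the lone mutant array is assumed to vary like the other groups. Of the 15 genes, Piwil4, Nxf2, Dnmt3l and Pmaip1 passed in both of these, L1td1 in the first, Tdrd9, Nodal and Otx2 in the second, and the other 7 in neither.

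The 5 genes with the more negative effect at 16 dpc were Piwil4, Nxf2, Dnmt3l, Tdrd9 and Adad1. Piwil4 read 3.61, 4.52 and 5.02 in wild type at 14 dpc, below its 16 dpc arrays at 7.00, 9.22 and 8.05, while the Wv/Wv arrays read 2.99 and 3.13 at 14 dpc. Its effect was −1.32 at 14 dpc and the difference of effects −3.82 ± 0.56 (adjusted p = 0.00352). Dnmt3l read 4.54, 4.44 and 4.47 in wild type and 4.60 and 4.82 in Wv/Wv at 14 dpc, under the limit in both genotypes; its effect there was 0.23, and the difference of effects was −3.19 ± 0.38 (adjusted p = 0.000327). The differences were −3.36 ± 0.48 for Nxf2, −3.12 ± 0.52 for Tdrd9, a tudor-domain helicase of the piRNA pathway, and −2.75 ± 0.50 for Adad1, an RNA-binding protein of the testis. In Wv/Wv testes these genes read under the limit at both ages on all arrays.

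The 10 genes with a weaker effect at 16 dpc read higher on every wild-type array at 14 dpc than on any at 16 dpc. Prdm14, a regulator of primordial germ cell specification, read 7.28, 7.54 and 7.36 in wild type at 14 dpc and 3.62, 3.31 and 3.30 at 16 dpc, against 3.28 and 3.35 and then 3.22, 3.17 and 3.08 in Wv/Wv; the difference of effects was 3.83 ± 0.63 (adjusted p = 0.00692). L1td1, an RNA-binding protein of pluripotent cells, read 8.75, 8.82 and 8.96 in wild type at 14 dpc and 4.45, 5.02 and 5.11 at 16 dpc, and the difference of effects was 3.67 ± 0.55. Pmaip1 and Tcl1, the latter a coactivator of AKT in early germ cells, gave 3.31 ± 0.50 and 3.19 ± 0.54. Nanog, Nodal and the homeobox gene Otx2 gave 1.99 ± 0.34, 2.05 ± 0.33 and 2.42 ± 0.37, and Olig1, Cpeb1 and Dnaic1 gave 2.71 ± 0.52, 2.46 ± 0.48 and 1.78 ± 0.31. Between the ages the mean of the wild-type arrays moved more than that of the Wv/Wv arrays for all 10 genes.

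**Figure D5:**
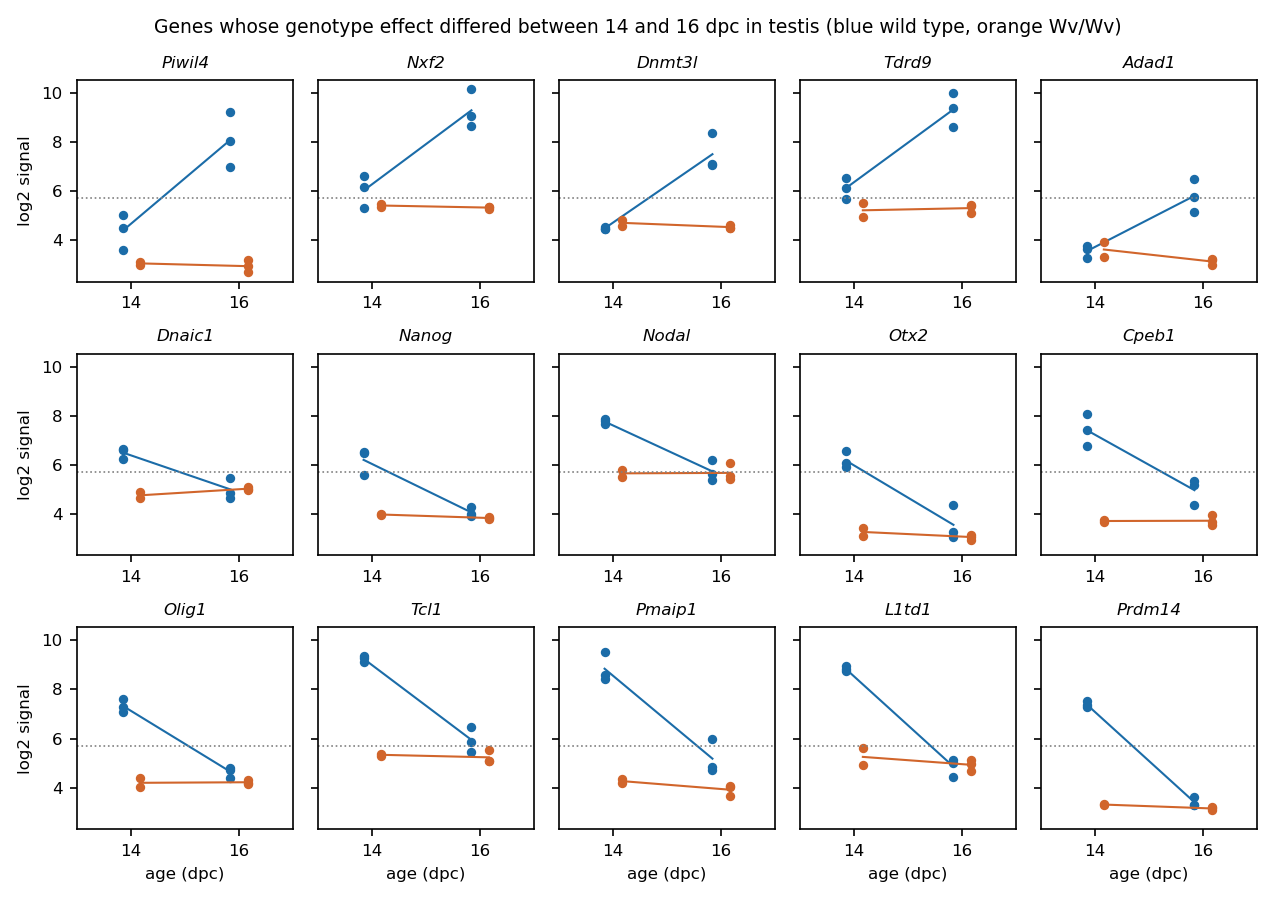
Log2 signal by array in wild-type (blue, 3 arrays per age) and Wv/Wv (orange, 2 arrays at 14 dpc and 3 at 16 dpc) testes for the 15 genes whose genotype effect differed between 14 and 16 dpc; lines join group means and the dotted line is the limit of 5.705. In the first 5 panels the wild-type signal is higher at 16 dpc, in the other 10 it is higher at 14 dpc, and the Wv/Wv lines are near level.

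The same comparison was made with the ovary at 16 dpc, where 427 of 18194 genes were lower and 253 higher in Wv/Wv. Of the 88 testis genes 45 were among the 427, 51.1% of the testis genes and 10.5% of the lower ovary genes. In all 3 comparisons 31 genes were lower. The difference of the effects between testis and ovary passed for 148 genes, 30 with a more negative effect in testis (0.165%) and 118 with a more negative effect in ovary (0.649%). With housekeeping centring the split was 3069 and 70. Without wild-type testis array 1 it passed for 185, of which 131 were shared, without Wv/Wv testis array 1 for 93, and without Wv/Wv ovary array 3 for 91. Among the 88 testis genes the difference passed for 26, with 14 more negative in testis and 12 more negative in ovary. The 3 wild-type ovary arrays were all narrow-spread and 1 of the 3 Wv/Wv ovary arrays was, so array class and genotype are partly mixed in the ovary effect, and the count with array class as a term was 1332.

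Piwil4 led the differences towards the testis. It read 3.01 to 3.26 in wild-type and 2.75 to 3.03 in Wv/Wv ovaries, all under the limit, and the difference of effects was −4.85 ± 0.53 (adjusted p = 5.14e-06). Morc1 gave −4.46 ± 0.87, Tdrd9 −3.75 ± 0.49 and Dppa4 −3.70 ± 0.74. Rrad gave −3.98 ± 0.43 with opposite signs, a fall in testis and a rise of 1.32 ± 0.30 in the ovary (adjusted p = 0.0133). Nxf2 and Dnmt3l, not among the 5 largest, gave −3.48 ± 0.45 and −3.15 ± 0.36.

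The largest differences towards the ovary were those of meiotic genes and of Ugt8a. Sycp3 read 11.50 to 11.95 in wild-type ovaries, and its effect was −7.57 there and −2.89 in testis, a difference of 4.68 ± 0.65 (adjusted p = 0.000169). Smc1b, a meiotic cohesin subunit, Meioc, which sustains meiotic prophase, and Terb1, which tethers telomeres to the nuclear envelope, gave 5.10 ± 0.42, 4.99 ± 0.37 and 5.23 ± 0.47, and none of these was called in testis. Ugt8a, a galactosyltransferase of glycolipid synthesis, gave 5.27 ± 0.48 and was not called in testis either (−0.78). Adad1, in contrast, was called lower in both organs, at −2.67 in testis and −3.03 in ovary, and the difference of 0.35 ± 0.47 did not pass.

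Of the 88 genes 34 were called neither in testis at 14 dpc nor in ovary at 16 dpc, with changes from −5.15 to −0.95. The effect differed from that at 14 dpc for 4 of them and from that in the ovary for 11, both for 4, and for 23 neither difference passed, so most of these genes are not shown to be particular to the testis at 16 dpc. The 4 were Piwil4, Nxf2, Dnmt3l and Tdrd9, of which Tdrd9 was not called against 14 dpc without Wv/Wv array 1 of that age.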

How the data were processed

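Total RNA was labelled as biotinylated cRNA with a 3′ in vitro transcription kit and hybridised to 1 array per sample, per the labels' protocols. The authors deposited log2 signals of 45101 probe sets made with RMA (named in the submitters' processing notes, its version and array set not given in the sources used here). RMA equalises the arrays, so a shift of total RNA is not visible. Arrays have no read depth, and their number limits the precision.

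Of the probe sets 34958 had 1 gene symbol in the platform annotation, 932 several and 9211 none; where a gene had several, the one with the highest mean on the 31 arrays stood for it, giving 18194 genes. The test was limma 3.58.1 under R 4.3.3 (1 mean per group over all 31 arrays, 19 residual degrees of freedom, Benjamini-Hochberg), checked on simulated data. The simulated arrays had independent noise and none was narrow-spread, so the check does not cover an array like wild-type array 1. Figures were drawn with matplotlib 3.10.9. The 26 lists, the comparisons and the limits were chosen with earlier results of these data known. Named were the 15 largest falls among called genes without overlap of the genotypes. Of each list, up to 5 called genes or the 2 largest changes were named. The 5 largest differences of effects each way and a fixed marker set were named as well. Other genes were named after their values were seen.

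Replicate numbers are in the labels. Deviations of wild-type and Wv/Wv arrays of the same number correlated with r of 0.72, 0.60 and 0.66. Arrays 2 and 3 correlated as well across numbers (0.63 and 0.64). Array 1 of each genotype was narrow-spread, so these values cannot show whether the numbers pair the arrays. The main fit had no term for pairs, and a fit with the replicate number as a block is given in the closing part. Other settings, including array weights, normalization, array class (an SD over probe sets under 2.2 or not) and arrays left out, are given in the closing part.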

Additional observations from a re-analysis of the deposited data

Results flagged for a closer look

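The genotype effect differed between testes at 16 and 14 dpc for 15 genes by a test of the difference (effect at 16 minus effect at 14 dpc, log2; limma, Benjamini-Hochberg adjusted). It was more negative at 16 dpc for Piwil4 (−3.82), Nxf2 (−3.36), Dnmt3l (−3.19), Tdrd9 (−3.12) and Adad1 (−2.75). It was less negative for Prdm14 (3.83), L1td1 (3.67), Pmaip1 (3.31), Tcl1 (3.19), Olig1 (2.71), Cpeb1 (2.46), Otx2 (2.42), Nodal (2.05), Nanog (1.99) and Dnaic1 (1.78).

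The effect also differed between testis and ovary at 16 dpc (effect in testis minus effect in ovary, log2), and the 5 largest differences each way were the following. It was more negative in testis for Piwil4 (−4.85), Morc1 (−4.46), Rrad (−3.98), Tdrd9 (−3.75) and Dppa4 (−3.70), and more negative in ovary for Ugt8a (5.27), Terb1 (5.23), Smc1b (5.10), Meioc (4.99) and Sycp3 (4.68). No group here had 4 or more arrays, so single arrays were not tested for standing apart.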

How the results depend on the processing

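In testis at 16 dpc, with every probe set in the fit, 108 probe sets were called lower and 0 higher. Not every further probe set of the 88 genes fell there. In every other setting run, with 1 probe set per gene, the 88 stayed below 0 where they were tested, and the count of calls varied. It was 838 lower and 95 higher with array weights (whose estimate stopped short of its tolerance), 41 lower with dim genes left out (41 of the 88 were then still tested and called), 25 with a minimum change of 1, 154 with cyclic loess, 144 and 1 higher with quantile normalization, 203 with housekeeping centring, 1 with only the arrays compared, 175 and 5 higher with array class as a term, 180 and 1 higher with that term and without wild-type array 1, and 173 on wide-spread arrays alone. Leaving out 1 of the 6 testis arrays at 16 dpc gave 51 to 146 lower and 0 to 15 higher, the lowest without wild-type array 2 and the highest without wild-type array 3. With the replicate number as a block 91 genes were lower, including 87 of the 88 (Dusp26 was lost), and the block changed no count by over 1.5 times. It gave each number the same effect in all groups of the series, so it does not model pairs within the testes at 16 dpc.

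The 15 differences between 16 and 14 dpc became 3 with dim genes left out, 0 with a minimum change of 1 (limma's treat; 42 at an unadjusted p below 0.05), 3 with only the arrays compared, 33 with array class as a term and 49 with that term and without wild-type array 1. Leaving out 1 testis array at 16 dpc gave 11 to 25. Leaving out 1 testis array at 14 dpc, an alternative chosen after seeing the data, gave 6 to 15, the lowest 2 counts without a Wv/Wv array. Housekeeping centring turned the split from 5 lower and 10 higher to 18 and 1. With the replicate block 16 passed, without Cpeb1.

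The 148 differences between testis and ovary became 10781 with array weights (6633 lower, 4148 higher), 76 with dim genes left out, 227 with every probe set, 34 with a minimum change of 1, 507 with cyclic loess, 497 with quantile normalization, 3139 with housekeeping centring (3069 lower, 70 higher), 48 with only the arrays compared, 1332 with array class as a term and 520 with that term and without wild-type array 1. Leaving out 1 testis array gave 93 to 192, leaving out 1 ovary array (also chosen after seeing the data) 91 to 176, and the replicate block 131. Wide-spread arrays alone gave no value, since no wild-type ovary at 16 dpc is among them. Signals under 5.705 in the mutant limit the size of most falls. The causes of these differences were not tested.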
